A study of Mus musculus with 22 samples.

Results

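Cleavage and polyadenylation factors are the proteins that cut a nascent transcript and prepare its new 3′ end for the poly(A) tail. The members were the 10 genes Cpsf1, Cpsf2, Cpsf3, Cpsf6, Cpsf7, Cstf1, Cstf2, Cstf3, Pcf11 and Nudt21, chosen by symbol. Each had 1 row in both deposited tables, among 15705 genes at 6 months and 15192 genes at 12 months. The value in each row is a splicing deficiency score (Sd score), a linear ratio per gene and library, taken here to be higher where more unspliced signal was present. Its formula was not given in the sources used here.

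The scores came from mouse cortex, by stranded sequencing of poly(A) RNA in 22 libraries. At 6 months there were 3 libraries each of dTg, N40K, 5xFAD and wild-type (WT) littermates from crosses of N40K-Tg +/- with FAD +/- mice. The N40K transgene makes a truncated, N-terminal form of U1-70K, itself part of the small nuclear ribonucleoprotein U1 (U1 snRNP). 5xFAD mice have amyloid-forming transgenes, and dTg mice have N40K and 5xFAD together. At 12 months there were 6 libraries of Tau P301S mice, transgenic for human tau with the P301S mutation, and 4 of their WT littermates, from crosses of Tau P301S +/- with WT mice. Neither the promoters of the transgenes nor the sex of the mice is given in the sources used here, and no label says that each library was a separate animal, so p-values measure the spread between these libraries. In bulk cortex a changed cell mix and a change within cells cannot be told apart. Of 22 markers of cortex and its cell types, 18 had a row at 6 months and 21 at 12 months. The rows lacking at 6 months were Mbp, Cx3cr1, Tmem119 and Cldn5, and Cldn5 also lacked one at 12 months. The scores do not measure expression, which was not analysed here.

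The machinery works in complexes. CPSF recognises the polyadenylation signal and contains the nuclease, CFIm binds UGUA motifs upstream and shapes the choice between sites, CstF binds GU-rich sequence downstream, and CFIIm links cleavage to the end of transcription. U1 snRNP recognises 5′ splice sites, and it is also known to shield introns from premature cleavage and polyadenylation by this machinery. Transcripts of Pcf11 and Cstf3 are themselves known to be cut short at polyadenylation sites within an intron, which limits the amount of the full-length protein.

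The base pairing of U1 reaches from the intron into the last bases of the exon before it. These bases are shown for Cpsf6, the only member whose score passed the test with N40K, and for its close relative Cpsf7, whose score did not. The call for Cpsf6 was close to the threshold and was lost in 11 of 21 alternative runs. Each line gives the last 12 bases of an exon that ends within the coding sequence, with the last 3 in capitals, from GENCODE M21 transcripts (GRCm38, Cpsf6 on chromosome 10 and Cpsf7 on chromosome 19). The scores were made on mm9, so no coordinates are given.
Cpsf6 exon 1: gagttcaacCAG
Cpsf6 exon 2: aatctaacaTGG
Cpsf6 exon 3: acaatcaaaGGG
Cpsf6 exon 4: aatccaggaAAA
Cpsf6 exon 5: caccttttcCAG
Cpsf6 exon 6: tccccctggGAG
Cpsf6 exon 7: acgctagtgCTG
Cpsf6 exon 8: gtctggatcCAG
Cpsf7 exon 2: gagttcaatCAG
Cpsf7 exon 3: agcttctccTGG
Cpsf7 exon 4: ccagtctaaAGG
Cpsf7 exon 5: tcccaagagGGG
Cpsf7 exon 6: ccaccatggCAG
Cpsf7 exon 7: gagctagtgCAG
Cpsf7 exon 8: gagctcttcTAG
Of these ends, 4 of 8 in Cpsf6 and 4 of 7 in Cpsf7 were AG, and 7 of 8 and 7 of 7 ended in G. Over the 10 members 55.8% of 138 such ends were AG, against 56% of 147046 ends in 13239 genes of the 6-month table. The members' exon ends thus held AG about as often as those of other genes, and a match of letters says nothing of how strongly U1 binds there.

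The members covered a wide range of scores. In WT cortex at 6 months Cpsf1, the large scaffold subunit of CPSF, had the highest score, 0.306 ± 0.00451 (SD, n = 3), at percentile 91.1 of all genes. Pcf11 followed at 0.103 ± 0.0163 (percentile 77.2), then Cpsf7 at 0.0637 ± 0.00153, Cpsf6 at 0.0433 ± 0.00404, Cstf1 at 0.036 ± 0.005, Cstf3 at 0.035 ± 0.00173, Cpsf3 at 0.0257 ± 0.000577 and Cstf2 at 0.0183 ± 0.00153. The lowest were Nudt21 at 0.0113 ± 0.000577 and Cpsf2 at 0.00967 ± 0.00153 (percentile 24.5). The WT libraries of Cpsf6 and Cstf1, of Cstf1 and Cstf3, and of Nudt21 and Cpsf2 overlapped, so the order within these pairs was not beyond the spread. Whether the score is taken per length was not given, so this is an order of scores and not of unspliced RNA. Cpsf1 has 36 introns of 7.27 kb in total in GENCODE M21, the smallest total of the members, and Cstf3 20 introns of 72.1 kb, the largest.

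Members differ in what else lies at their locus. Cpsf6, Cstf1 and Nudt21 overlap no other gene of GENCODE M21. Each of the other 7 overlaps at least 1 gene on the opposite strand, such as Adck5 at Cpsf1 and Tcp11l1 at Cstf3. The libraries were stranded, but whether the counting used the strand was not given, so the scores of these 7 are uncertain where the genes overlap. Reads of Cstf2 could also be shared with its retrocopy Cstf2t, which had no row in either table.

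The first comparison asks which scores differed between the 6 libraries with the N40K transgene (dTg and N40K) and the 6 without it (5xFAD and WT), as an effect averaged over 5xFAD status. Of the 10 members only Cpsf6, an RNA-binding larger subunit of CFIm, rose, and none fell (limma, threshold of 0.05 on the p-value adjusted by Benjamini-Hochberg across the table). Over all 15705 genes 11.7% passed, and 10.8% passed as higher, so 1 member in 10 did not stand apart from the background. That background itself moved with single libraries. Omitting dTg replicate 2 brought the 1838 calls to 947, and omitting N40K replicate 1 to 1058. Among 5xFAD libraries the omission of replicate 3 gave 832 and of replicate 1 gave 1173, and among WT libraries that of replicate 2 gave 813 and of replicate 1 gave 965. The other 6 omissions gave 1372 to 2352. Of all calls 92% were higher in carriers, against 57.5% of the calls once libraries were brought to a common median. The median change of the members was 0.01 on the log2 scale, against 0.09 over all genes, and 7 of the 10 members lay below that general median.

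Cpsf6 (ENSMUSG00000055531) had scores of 0.052, 0.053 and 0.050 in dTg and 0.061, 0.056 and 0.047 in N40K libraries, against 0.041, 0.046 and 0.042 in 5xFAD and 0.039, 0.044 and 0.047 in WT libraries. The lowest carrier equalled the highest non-carrier at 0.047, and all other carriers were above all non-carriers. The mean was 0.0532 ± 0.00488 in carriers and 0.0432 ± 0.00306 in non-carriers (SD, n = 6 each), a 1.22-fold difference (log2 0.29 ± 0.07 SE, 95% interval 0.13 to 0.44, adjusted p = 0.0305). This and all log2 changes are on the scale of log2(score + 0.002). N40K replicate 1 and dTg replicate 2, which had the highest median scores over all genes (0.036 and 0.035, against 0.029 to 0.033 in the other 10 libraries), were also the highest Cpsf6 libraries of their groups. This was not particular to Cpsf6. Ties included, N40K replicate 1 was the highest of its group in 7 of the 10 members and dTg replicate 2 in 8. How many of all genes did so was not counted. With all libraries brought to a common median the difference of Cpsf6 was 0.15 (adjusted p = 0.176), past no threshold.

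The call for Cpsf6 stood close to the threshold. It was lost without both libraries of highest median (log2 0.24, adjusted p = 0.116), and without any of 7 single libraries, at adjusted p of 0.0635 without WT replicate 1, 0.0644 without WT replicate 2, 0.0584 without N40K replicate 1, 0.0522 without N40K replicate 2, 0.0653 without 5xFAD replicate 1, 0.0717 without 5xFAD replicate 3 and 0.0724 without dTg replicate 2. The difference itself stayed between 0.25 and 0.34 over all 12 omissions.

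**Figure D1:**
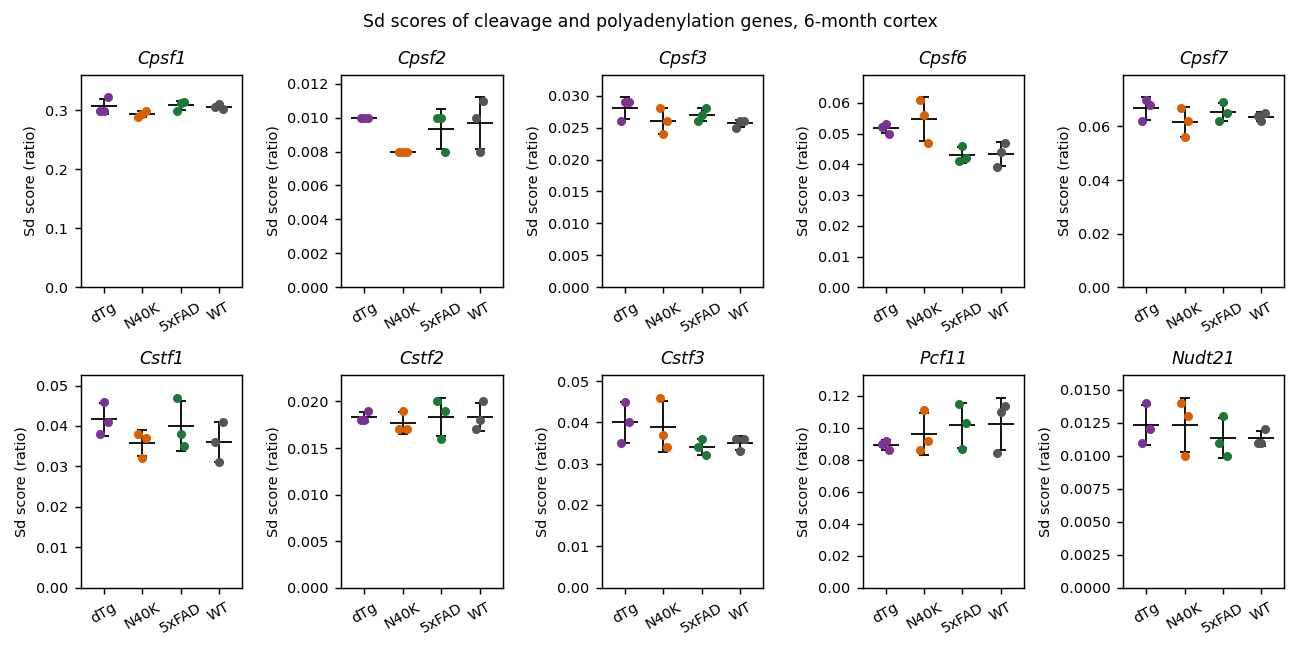
Sd score (ratio, axis from 0) of each member in the 6-month libraries, 1 point per library, with the mean and SD of the 3 libraries of each group as a black bar. In the Cpsf6 panel the dTg and N40K libraries lie at 0.047 to 0.061 and the 5xFAD and WT libraries at 0.039 to 0.047, while the groups overlap in most other panels.

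The partners of Cpsf6 in CFIm did not pass the test. Nudt21, the small subunit that reads UGUA, had 0.011, 0.014 and 0.012 in dTg and 0.014, 0.010 and 0.013 in N40K libraries, against 0.011, 0.013 and 0.010 in 5xFAD and 0.011, 0.011 and 0.012 in WT libraries. Carriers and non-carriers overlapped, and 1 step of the deposited decimals (0.001) is a sizeable part of such values (log2 0.10, 95% interval -0.10 to 0.30, adjusted p = 0.495). Cpsf7, which can take the place of Cpsf6 beside Nudt21, had 0.062, 0.070 and 0.068 in dTg and 0.067, 0.056 and 0.062 in N40K libraries, against 0.062, 0.069 and 0.065 in 5xFAD and 0.064, 0.062 and 0.065 in WT libraries. The range of carriers enclosed that of non-carriers, and the interval of the difference ran from -0.13 to 0.11 (log2 -0.01, adjusted p = 0.935).

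In CPSF the narrowest interval belonged to Cpsf1. It had 0.299, 0.299 and 0.322 in dTg and 0.288, 0.294 and 0.299 in N40K libraries, against 0.299, 0.312 and 0.314 in 5xFAD and 0.306, 0.311 and 0.302 in WT libraries. Carriers and non-carriers overlapped, with a difference of -0.03 (log2, 95% interval -0.10 to 0.03, adjusted p = 0.48), and the whole interval lay below the median change of all genes. Cpsf3, the nuclease that makes the cut, averaged 0.027 ± 0.002 in carriers and 0.0263 ± 0.00103 in non-carriers (SD, n = 6 each, log2 0.03, 95% interval -0.07 to 0.13, adjusted p = 0.687). Cpsf2, the inactive partner of Cpsf3, ranged from 0.008 to 0.010 in carriers and from 0.008 to 0.011 in non-carriers (log2 -0.06, 95% interval -0.22 to 0.09, adjusted p = 0.59). The Cpsf2 interval also ended below the median change of all genes, though barely (0.0931 against 0.0945). That median itself was 0.0525 without both libraries of highest median.

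CstF and CFIIm gave no call either. Cstf3, the CstF scaffold, had 0.035, 0.045 and 0.040 in dTg and 0.046, 0.037 and 0.034 in N40K libraries, against 0.034, 0.036 and 0.032 in 5xFAD and 0.036, 0.033 and 0.036 in WT libraries. Its highest values were again N40K replicate 1 and dTg replicate 2, and the other carriers reached into the range of the non-carriers (log2 0.18, 95% interval -0.01 to 0.36, adjusted p = 0.184). Without those 2 libraries its difference was 0.08 (adjusted p = 0.51). Cstf1 averaged 0.0387 ± 0.00463 in carriers and 0.038 ± 0.00551 in non-carriers (log2 0.03, 95% interval -0.18 to 0.24, adjusted p = 0.89). The RNA-binding subunit Cstf2 averaged 0.018 ± 0.000894 in carriers and 0.0183 ± 0.00163 in non-carriers (SD, n = 6 each, log2 -0.02, 95% interval -0.15 to 0.11, adjusted p = 0.859). Pcf11, the CFIIm subunit that contacts RNA polymerase II, had 0.090, 0.092 and 0.086 in dTg and 0.086, 0.111 and 0.092 in N40K libraries, against 0.115, 0.087 and 0.103 in 5xFAD and 0.084, 0.110 and 0.114 in WT libraries. The groups overlapped, and its difference of -0.13 (95% interval -0.36 to 0.10, adjusted p = 0.427) was the lowest of the 10.

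**Figure D2:**
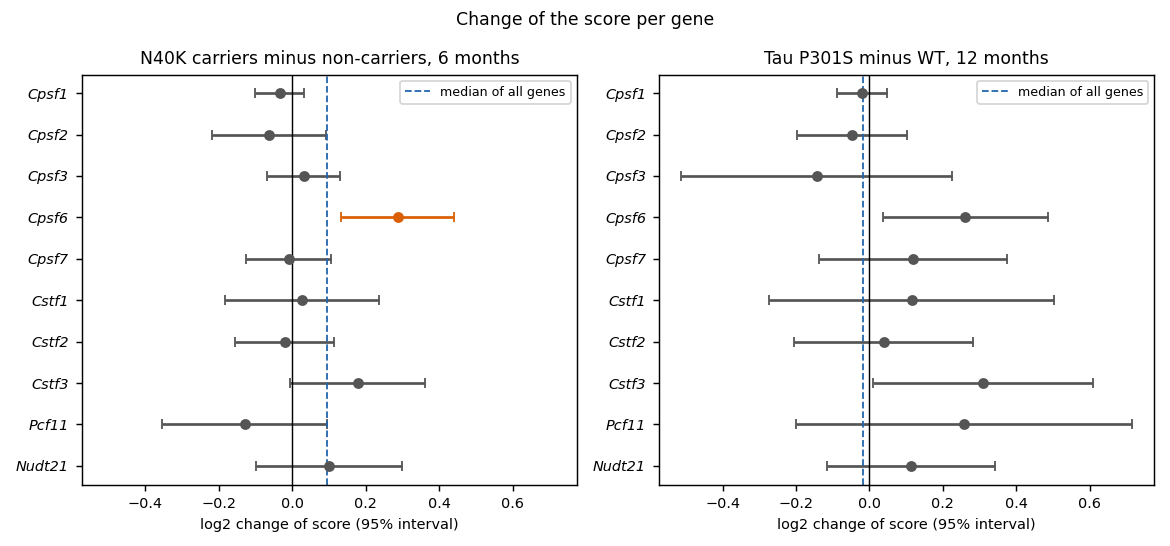
Log2 change of the score for each member with its 95% interval from limma, for N40K carriers minus non-carriers at 6 months (left) and Tau P301S minus WT at 12 months (right). The dashed line is the median change of all genes, 0.09 and -0.02. Cpsf6 alone, in orange, passed at 6 months, and no member passed at 12 months.

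Between single groups of 3 libraries no member passed in any comparison. In N40K minus WT, the effect of the transgene without amyloid, 0.178% of all genes passed. These 28 calls became 524 without dTg replicate 2, a library outside the comparison, 18 without WT replicate 1 or N40K replicate 1, and 105 with only the groups compared in the fit. By limma 1 member had an unadjusted p under 0.05, namely Cpsf6, at 0.32 (95% interval 0.10 to 0.54, unadjusted p = 0.00944, adjusted p = 0.135). In dTg minus 5xFAD, the same effect with amyloid, 0.312% of all genes passed, and 2834 of 15705 had an unadjusted p under 0.05 (limma). Cpsf6 was the 1 member among these, at 0.26 (95% interval 0.04 to 0.47, unadjusted p = 0.0272, adjusted p = 0.214). Here its dTg libraries (0.050 to 0.053) were all above its 5xFAD libraries (0.041 to 0.046), whereas its N40K libraries (0.047 to 0.061) met its WT libraries (0.039 to 0.047) at 0.047. The 49 calls over all genes in dTg minus 5xFAD became 296 without N40K replicate 1, also outside the comparison, and 80 without dTg replicate 1. They became 15 to 20 without any single WT library, 18, 19 and 30 without 5xFAD replicate 3, 1 and 2, and 0 with libraries at a common median. The other 9 members ranged from -0.21 (Cpsf2) to 0.14 (Cstf3) in N40K minus WT and from -0.17 (Pcf11) to 0.22 (Cstf3) in dTg minus 5xFAD. In dTg minus WT, both sets of transgenes together, 1.57% of all genes passed, and 3533 of 15705 had an unadjusted p under 0.05 (limma). Cpsf6 was again the 1 member among these (log2 0.25, adjusted p = 0.177). Its 247 calls over all genes became 710 without N40K replicate 1, 30, 31 and 55 without WT replicate 1, 2 and 3, 55 without dTg replicate 2, and 93, 115 and 118 without 5xFAD replicate 3, 5xFAD replicate 1 and N40K replicate 3. This comparison shares its libraries with the 2 before it, and in all 3 the background shares are accordingly loose.

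The amyloid transgenes alone moved no member past the threshold. In 5xFAD minus WT 0.0191% of all genes passed, and no member had an unadjusted p under 0.05. Cpsf6 averaged 0.043 ± 0.00265 in 5xFAD and 0.0433 ± 0.00404 in WT libraries (SD, n = 3 each, log2 -0.01, 95% interval -0.23 to 0.21, limma adjusted p = 1). The members' changes ranged from -0.04 (Cstf3) to 0.14 (Cstf1). Averaged over N40K status, 0.0446% of all genes passed for 5xFAD, with no member called and none at an unadjusted p under 0.05 (limma). The largest member change there was 0.18 in Cstf1 (95% interval -0.03 to 0.39, adjusted p = 0.852), and Cpsf6 stood at -0.04 (95% interval -0.19 to 0.12).

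In dTg minus N40K, amyloid on top of the N40K fragment, 0.0191% of all genes passed and no member did. Over all genes 807 of 15705 had an unadjusted p under 0.05 (limma). By limma 1 member had an unadjusted p under 0.05, namely Cpsf2, with 0.010 in all dTg and 0.008 in all N40K libraries (log2 0.26, 95% interval 0.04 to 0.48, unadjusted p = 0.0245, adjusted p = 0.903). The groups were apart by 2 steps of the last decimal, and the 5xFAD (0.010, 0.010 and 0.008) and WT libraries (0.010, 0.008 and 0.011) covered both levels. Cpsf6 differed by -0.07 (95% interval -0.29 to 0.15). The interaction, which asks whether the N40K effect differed with amyloid, passed in 0.0191% of all genes and in no member (limma, none at an unadjusted p under 0.05). For Cpsf6 it was -0.06 with an interval from -0.37 to 0.25, which leaves room for a sizeable difference in either direction.

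The wider machinery of 3′ ends was described with a list of 15 further genes, of which 14 had a row. Averaged over 5xFAD status 5 of these 14 rose with N40K and none fell (limma, against 10.8% higher over all genes), with a median change of 0.12 against 0.09 over all genes. The list was chosen with earlier results of these data known, so its share is a description and does not test the list against all genes. Rbbp6, an activator of the CPSF nuclease, had 0.097, 0.116 and 0.095 in dTg and 0.108, 0.095 and 0.091 in N40K libraries, against 0.062, 0.072 and 0.070 in 5xFAD and 0.069, 0.058 and 0.072 in WT libraries. All 6 carriers lay above all 6 non-carriers (1.48-fold, log2 0.56 ± 0.08 SE, adjusted p = 0.00738). Papola, the canonical poly(A) polymerase, had 0.032, 0.036 and 0.031 in dTg and 0.035, 0.029 and 0.029 in N40K libraries, against 0.026, 0.025 and 0.025 in 5xFAD and 0.023, 0.023 and 0.025 in WT libraries. Carriers and non-carriers were again apart (1.28-fold, log2 0.36 ± 0.06 SE, adjusted p = 0.0105).

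Scaf8 and Scaf4 bind the tail of RNA polymerase II and are known to restrain the use of early polyadenylation sites. Scaf8 had 0.004, 0.005 and 0.004 in dTg and 0.004 in all N40K libraries, against 0.003 in all 5xFAD and WT libraries (log2 0.30, adjusted p = 0.00659). The groups did not overlap, although 5 of the 6 carriers were only 1 step of the last decimal above the others. Scaf4 and Xrn2, a nuclease of transcription termination, were named after their values had been seen. Scaf4 averaged 0.0795 ± 0.0092 in carriers and 0.059 ± 0.00456 in non-carriers (SD, n = 6 each, 1.33-fold, adjusted p = 0.0182), and Xrn2 averaged 0.0153 ± 0.00103 in carriers and 0.0128 ± 0.000408 in non-carriers (1.17-fold, adjusted p = 0.0181). Rbbp6, Papola and Scaf4 also passed with libraries at a common median (log2 0.43, 0.22 and 0.28), and Scaf8 (0.16, adjusted p = 0.0735) and Xrn2 (0.09, adjusted p = 0.247) did not. All 5 passed without each of the 12 libraries in turn, and without both libraries of highest median. In dTg minus WT 3 of the 14 passed (limma, against 1.57% of all genes), Scaf8 (adjusted p = 0.0328), Papola (0.0378) and Rbbp6 (0.0378). None of the 3 passed after centring (adjusted p = 0.188, 0.056 and 0.0531). Each also missed the threshold without any single WT library, at adjusted p of 0.0711 to 0.129 for Papola, 0.0697 to 0.12 for Rbbp6 and 0.0761 to 0.11 for Scaf8. All 3 missed it, at 0.0505 to 0.0611, without N40K replicate 3, 5xFAD replicate 1 or 5xFAD replicate 3. Papola and Rbbp6 missed it without dTg replicate 2 (both 0.117) and without dTg replicate 1 (0.0534 and 0.0522), and Rbbp6 without N40K replicate 2 (0.0536).

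**Figure D3:**
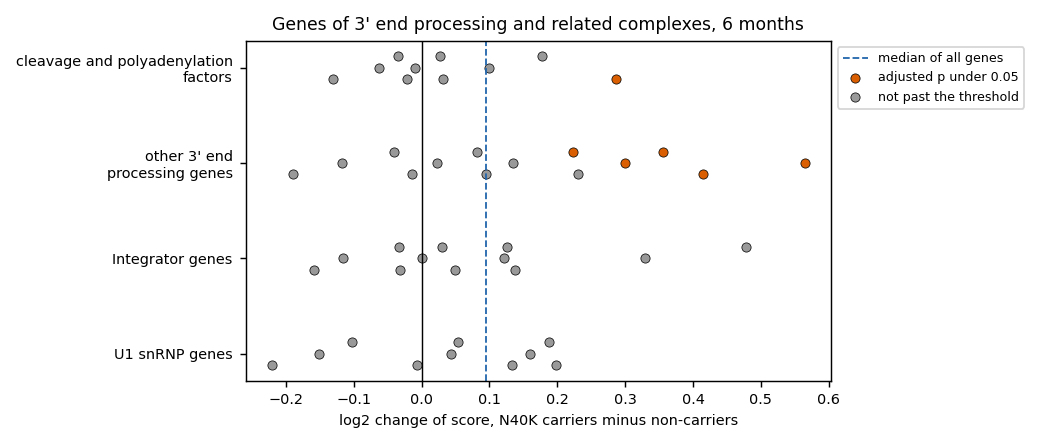
Log2 change of the score for N40K carriers minus non-carriers at 6 months, 1 point per gene, for the 10 members, 14 other 3′ end processing genes, 12 Integrator genes and 10 U1 snRNP genes. Orange points passed at an adjusted p under 0.05 (1 member and 5 of the other 3′ end processing genes). The lists were chosen with earlier results of these data known. The dashed line is the median of all genes at 0.09, and points are spread vertically only to be seen.

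The Integrator complex cuts the 3′ ends of small nuclear RNAs with relatives of the CPSF nuclease, and 12 of 14 listed genes had a row. None passed with N40K. By limma 4 of them had an unadjusted p under 0.05, 3 with higher scores in carriers and 1 (Ints4) with a lower one. Over all genes 4566 of 15705 had such a p, so these 4 do not set the list apart. The smallest p belonged to Ints9, the relative of Cpsf2, with 0.0175 ± 0.00226 in carriers and 0.0135 ± 0.00164 in non-carriers (adjusted p = 0.0616). Without 5xFAD replicate 2 (0.047) or dTg replicate 1 (0.0259) Ints9 passed. Of 10 U1 snRNP genes none passed either, and by limma 3 had an unadjusted p under 0.05, against the same 4566 of 15705 genes. The smallest p was in Snrpd1, a core Sm protein, with 0.00567 ± 0.000816 in carriers and 0.00467 ± 0.000516 in non-carriers (adjusted p = 0.0598). The other two, named after their values had been seen, had lower scores in carriers. Snrnp70, which encodes U1-70K, averaged 0.0415 ± 0.00207 in carriers and 0.0447 ± 0.000816 in non-carriers (SD, n = 6 each, log2 -0.10, limma unadjusted p = 0.0182, adjusted p = 0.0935). Snrpg, a core Sm protein, averaged 0.0198 ± 0.00214 in carriers and 0.0235 ± 0.00339 in non-carriers (log2 -0.22, adjusted p = 0.144).

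Among 7407 genes with a mean score of at least 0.02, leaving out predicted genes, those whose scores followed Cpsf6 most closely across the 12 libraries were Pde6g, Zfp944, Gclm, Cbr1 and Ccdc30, with Pearson's r of 0.927, 0.926, 0.919, 0.915 and 0.908. These are the highest of 7407 correlations over 12 points that share their library medians, and they are given as a description.

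At 12 months the question was whether mutant tau moved the same scores. No member passed in Tau P301S minus WT, where 0.00658% of all genes passed. By limma 2 members had an unadjusted p under 0.05, against 1258 of all 15192 genes. Cpsf6 was lowest at 0.012, with a median of 0.0135 and a highest value of 0.016, in Tau P301S libraries, against 0.009, 0.011, 0.013 and 0.012 in WT libraries. The groups overlapped between 0.012 and 0.013 (log2 0.26, 95% interval 0.04 to 0.49, unadjusted p = 0.0276, adjusted p = 0.545). Cstf3 ran from 0.014 over a median of 0.0175 to 0.024 in Tau P301S libraries, against 0.013, 0.013, 0.016 and 0.015 in WT libraries (log2 0.31, 95% interval 0.01 to 0.61, unadjusted p = 0.0446, adjusted p = 0.594). Here too the ranges overlapped.

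The WT libraries at 12 months fell apart by their general level. The Tau P301S libraries had medians over all genes of 0.014 to 0.016, WT replicates 3 and 4 of 0.017, and WT replicates 1 and 2 of 0.013. In 8 of the 10 members both WT replicates 3 and 4 were above replicates 1 and 2, the same order as in the medians over all genes. How many of all genes split this way was not counted, so nothing particular to the members is read from it. Pcf11 had a lowest value of 0.050, a median of 0.058 and a highest value of 0.082 in Tau P301S libraries, against 0.041, 0.037, 0.063 and 0.065 in WT libraries. All 6 Tau P301S libraries were above the lower WT pair, and they overlapped the higher one (log2 0.26, 95% interval -0.20 to 0.71, adjusted p = 0.79). Cstf1 had 0.031 to 0.039 in Tau P301S libraries, against 0.027, 0.021, 0.036 and 0.043 in WT libraries. Cpsf3 had 0.024 to 0.033 in Tau P301S libraries, against 0.025, 0.024, 0.039 and 0.041 in WT libraries. In both genes the WT libraries spanned the range of the Tau P301S libraries. Without WT replicates 3 and 4, an omission chosen after the data had been seen, the difference of Cpsf6 was 0.40 (adjusted p = 0.222) and that of Cstf3 0.42 (adjusted p = 0.366), and still no member passed.

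The remaining members overlapped or met between Tau P301S and WT libraries. Cpsf1 had the narrowest interval, with 0.468 ± 0.00438 in Tau P301S (SD, n = 6) and 0.475 ± 0.00299 in WT libraries (SD, n = 4, log2 -0.02, 95% interval -0.09 to 0.05, limma adjusted p = 0.894). Its Tau P301S libraries (0.460 to 0.471) and WT libraries (0.471 to 0.478) met only at 0.471. The limma interval (SE 0.03) also draws on the spread of all genes, and the residual SD of Cpsf1 alone was 0.012 (log2). Cpsf7 had 0.0215 ± 0.00235 in Tau P301S and 0.0198 ± 0.0032 in WT libraries, and Cstf2 had 0.00983 ± 0.00147 in Tau P301S and 0.0095 ± 0.00129 in WT libraries. Cpsf2 had 0.00817 ± 0.000753 in Tau P301S and 0.0085 ± 0.000577 in WT libraries, and Nudt21 had 0.00417 ± 0.000408 in Tau P301S and 0.00375 ± 0.000957 in WT libraries. These last 2 genes differed by less than 1 step of the last decimal. Of the wider 3′ end list none of 14 passed and none had an unadjusted p under 0.05 (limma), nor did any of 12 Integrator or 10 U1 snRNP genes pass (0 and 2 unadjusted). Over all genes 1258 of 15192 had an unadjusted p under 0.05. The smallest p of each list belonged to Fip1l1, a CPSF subunit (log2 0.13, adjusted p = 0.619), to Ints2 (0.12, adjusted p = 0.649) and to Snrpe, a core Sm protein (-0.37, adjusted p = 0.487).

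**Figure D4:**
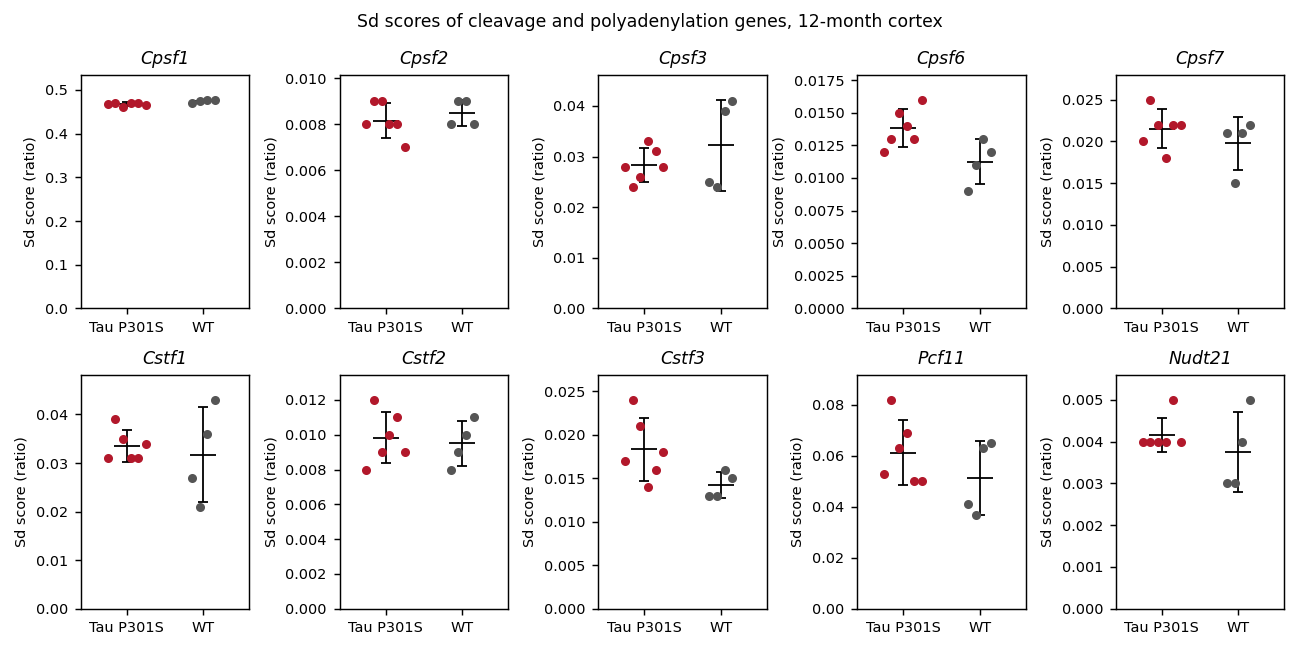
Sd score (ratio, axis from 0) of each member in the 12-month libraries, 1 point per library, with the mean and SD of each group (6 Tau P301S and 4 WT libraries) as a black bar. The WT points of Cpsf3, Cstf1 and Pcf11 form a low and a high pair. In Cpsf3 and Cstf1 most Tau P301S points lie between the pairs, and in Pcf11 they run from 0.050 to 0.082, past the high pair.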

How the data were processed

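Sd scores of mouse cortex were analysed at 6 months (12 libraries) and 12 months (10 libraries). The values are a ratio per gene and library, deposited by the authors rounded to 3 decimals. Per the submitters' processing notes CASAVA, STAR, BWA and bedtools 2.16.1 were used with mm9. The score's formula, the counter, the annotation and the depth are unknown here (not given in the sources used here), and no interval for counting error could be set.

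No value was missing, and no libraries were identical. The log2 of each score plus 0.002 (the pseudocount, set at the 5th percentile of nonzero scores) was fitted with limma 3.58.1 in R 4.3.3. Each table had its own fit, with a coefficient for every group and 8 residual degrees of freedom. The scripts were tested on simulated data. P-values are two-sided and Benjamini-Hochberg adjusted over all genes of the table, with a threshold of 0.05. The 8 comparisons at 6 months share libraries. Libraries were not recentred in the values reported first.

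All members are named. Of the further lists up to 3 genes past the threshold with the smallest p are named, or the one with the smallest p, and any other is said to be named after its values were seen. The members and lists were chosen with earlier results of these data known. Exon ends and introns are from 1 principal coding transcript per gene of GENCODE M21. Alternatives changed the pseudocount, the scale, the filter on low scores, the centring, the eBayes trend, the replicate term and the libraries.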

Additional observations from a re-analysis of the deposited data

Results flagged for a closer look

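Cpsf2 scores of dTg and N40K mice lay on opposite sides of the mean scores of their counterparts without the N40K fragment. All N40K libraries (0.008) were below the WT mean of 0.00967, and all dTg libraries (0.010) were above the 5xFAD mean of 0.00933. Single libraries met in both cases, with WT replicate 2 also at 0.008 and 5xFAD replicates 1 and 2 also at 0.010. The interaction was 0.30 on the log2 scale (limma, unadjusted p = 0.0569, adjusted p = 1), so the test did not separate the effects. In each of them the group means differed by less than 2 steps of the last decimal. The cause was not tested.

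At 12 months each member was examined for a library far from the others, in Tau P301S and in WT libraries separately, 20 sets of values in all. Of these, 2 held one. The nominal rate by chance is about 1 in 20. The sets share their libraries and the scores are rounded to 0.001, so that rate is only a rough guide. The highest Tau P301S library of Nudt21 was at 0.005 and the other 5 at 0.004, a single step of the last decimal. The lowest WT library of Cpsf7, replicate 2, was at 0.015, against 0.021 to 0.022 in the other 3.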

How the results depend on the processing

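The count of members called with N40K averaged over 5xFAD status, 1 by default, was 0 after median-centring, on the linear scale, with the replicate block and without both libraries of highest median, and 0 to 1 when single libraries were left out. It was 1 under the other pseudocounts (0.001 and 0.01), the eBayes trend and both filters on low scores. In the other 8 comparisons no member passed under any alternative run. Restricting the fit to the groups compared applies only to comparisons of 2 groups. Over all genes the averaged N40K effect gave 1838 calls by default, 1241 after centring (57.5% of them higher, against 92% by default), 889 with the replicate block, 832 at a mean score of at least 0.02, 1118 without the lowest 25 percent, 796 on the linear scale and 749 without both libraries of highest median. Calls over all genes ranged over the alternatives from 0 to 524 in N40K minus WT (28 by default), 0 to 296 in dTg minus 5xFAD (49), 10 to 710 in dTg minus WT (247, and 31 with the block) and 0 to 46 in the other 5 comparisons (1 to 7). Same-numbered libraries showed no common tendency to deviate together (r from -0.2 to 0.0708 over 18 pairs at 6 months, -0.265 to 0.191 over 4 pairs at 12 months). No pairing by number was detected, and so few libraries cannot exclude one. No library at 6 months, and 1 of 10 at 12 months, correlated best with its own number. Tau P301S replicates 5 and 6 had no WT library of their number and so could not match. With the block Cpsf6 was at adjusted p = 0.0643, and on the linear scale it was at 0.0523.

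Small changes turned their sign. In the averaged N40K effect (log2) centring gave -0.104 for Cpsf3, -0.11 for Cstf1 and -0.0354 for Nudt21. Leaving out single libraries, or both of highest median, gave ranges of -0.00630 to 0.0575 for Cpsf3, -0.0305 to 0.0854 for Cstf1, -0.0576 to 0.0226 for Cpsf7 and -0.0638 to 0.00862 for Cstf2. For Cpsf6 these were -0.0902 to 0.000414 for 5xFAD averaged over N40K status, -0.0789 to 0.0497 for 5xFAD minus WT, -0.172 to 0.00922 for dTg minus N40K and -0.164 to 0.0176 for the interaction. None of these changes passed the threshold, and the cause was not tested. Scores under about 0.02, as in Cpsf2, Cstf2 and Nudt21, are limited by the rounding to 0.001. At 12 months this also holds for the means of Cpsf6 (0.01125 in WT, 0.0138 in Tau P301S) and Cstf3 (0.01425 in WT, 0.0183 in Tau P301S).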

Other observations

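The place of single members among all genes differed between the tables, whose values were not tested against each other. In WT cortex Cpsf1 stood at percentile 91.1 at 6 months and 97.2 at 12 months, with a score of 0.306 and 0.475, while the median WT score over all genes was 0.0297 in the 6-month and 0.0153 in the 12-month table. Cpsf3 stood at percentile 46.4 and 67.4, whereas Cpsf6 stood at percentile 59.5 and 42.1 and Cpsf7 at 67.8 and 56.3. Cpsf6 was the fourth highest member at 6 months and the seventh at 12 months.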
